A study of Rattus norvegicus with 6 samples.

Results

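The 100 genes whose renal cortex transcripts differed most among 3 rats given water were taken from 10932 genes that the arrays measured in every animal. A gene was eligible if a probe with a gene symbol was well above background on all 6 arrays and carried no outlier flag, and the brightest such probe stood for the gene. The genes were then ranked by the standard deviation (SD) of the log2 signal over the 3 water arrays, and the 100 largest were kept. The question was which functions vary among rats without treatment, and what that spread leaves readable on the arrays of treated rats. Because the water values chose the genes, the spread among water rats is a description throughout and supports nothing.

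The study gave ethylenediamine dihydrochloride, a salt of a small diamine, at 500 mg/kg/day to 3 male rats for 4 weeks, and water to 3 others for the same time. All were Sprague-Dawley rats of the Crl:CD(SD) stock, which is outbred, and were bought at 5 weeks of age. Total RNA of the renal cortex was hybridised to 1-colour Agilent arrays, 1 animal per array. A log2 signal below is the log2 intensity of a probe minus that of the 75th percentile probe of its array, so that 0 is the brightness of that percentile. The arrays lay on 2 slides scanned on different days: ethylenediamine replicates 2 and 3 shared slide 2, and ethylenediamine replicate 1 shared slide 1 with all 3 water arrays. A spread over the treated arrays therefore spans both slides, and a spread over the water arrays does not. The tissue held its expected cell types: all 15 cortical markers looked for, from Slc34a1 of the proximal tubule to Kdr of the endothelium, were measured on every array, none was among the 100 genes, and their water SDs ran from 0.0028 to 0.32.

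The cortex is mostly proximal tubule, which reabsorbs filtered solutes and modifies drugs and steroids through cytochrome P450 enzymes and conjugating transferases. Smaller populations of distal tubule, vessel, glomerulus and immune cells add transcripts of their own. Genes of stress, hormone, clock and immune responses are known for transcripts that can change within hours. In a bulk sample, fewer cells of a type and less RNA per cell cannot be told apart.

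Among the 100 genes, the SD over water rats ran from 0.79 to 4.01 on the log2 scale, with a median of 0.99, against a median of 0.09 over all 10932 genes. At the edge of the rule, Gzmc, Klra2 and Sptbn4 were just inside with SDs of 0.80, 0.79 and 0.79, and Alox15, Ly49s7 and Echdc3 just outside with 0.79, 0.79 and 0.78, so the limit falls in a continuum. Grouped by known role, 16 genes act in drug, steroid, lipid or small-molecule metabolism, 14 encode crystallins, cytoskeletal, muscle or matrix proteins, and 13 belong to immune cells or responses. Plasma and secreted proteins gave 11 genes, growth factors, channels, transporters and receptors 11, and stress, clock and signal feedback 10. Germ cell, division and chromatin genes numbered 7, and 18 had other or little-known roles. These groups were drawn up after the values had been seen.

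The widest spread belonged to Hmox1, which encodes haem oxygenase 1, the inducible enzyme that breaks down haem. Its log2 signals were -1.22, -1.38 and -1.09 in ethylenediamine rats 1 to 3, against 5.40, -1.72 and -1.36 in water rats 1 to 3. A single water rat was high, 139-fold above the lowest water rat, and the other 5 animals lay close together. Dusp15, a dual-specificity phosphatase, showed the opposite picture, at 3.44, 2.43 and 2.01 in ethylenediamine rats, against 2.80, -3.41 and 3.75 in water rats. Here water rat 2 alone was low, 144-fold below water rat 3. Ubd, a ubiquitin-like modifier induced by interferon gamma, read 1.91, 2.36 and 2.10 in ethylenediamine rats, against -2.95, 1.82 and 1.40 in water rats. Only water rat 1 was low, and the other water rats lay slightly below the treated ones, so that the groups did not overlap.

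Ephx2 encodes soluble epoxide hydrolase, which converts fatty acid epoxides to diols. Its log2 signals were 1.87, 2.46 and 1.69 in ethylenediamine rats, against 3.01, 3.10 and -1.38 in water rats, so that the treated values fell between the 2 high water rats and the low one. Resp18, named as a regulated endocrine-specific protein, read 5.16, 4.43 and 3.96 in ethylenediamine rats, against 0.55, 4.66 and 5.22 in water rats. Water rat 1 was low and the remaining 5 animals overlapped. Gp2, a membrane glycoprotein of zymogen granules related to uromodulin, read -0.30, 1.20 and 2.28 in ethylenediamine rats and -1.13, 2.07 and 1.91 in water rats. For Gp2 the first animal of each group was the lowest, and the groups overlapped over most of their range.

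**Figure D1:**
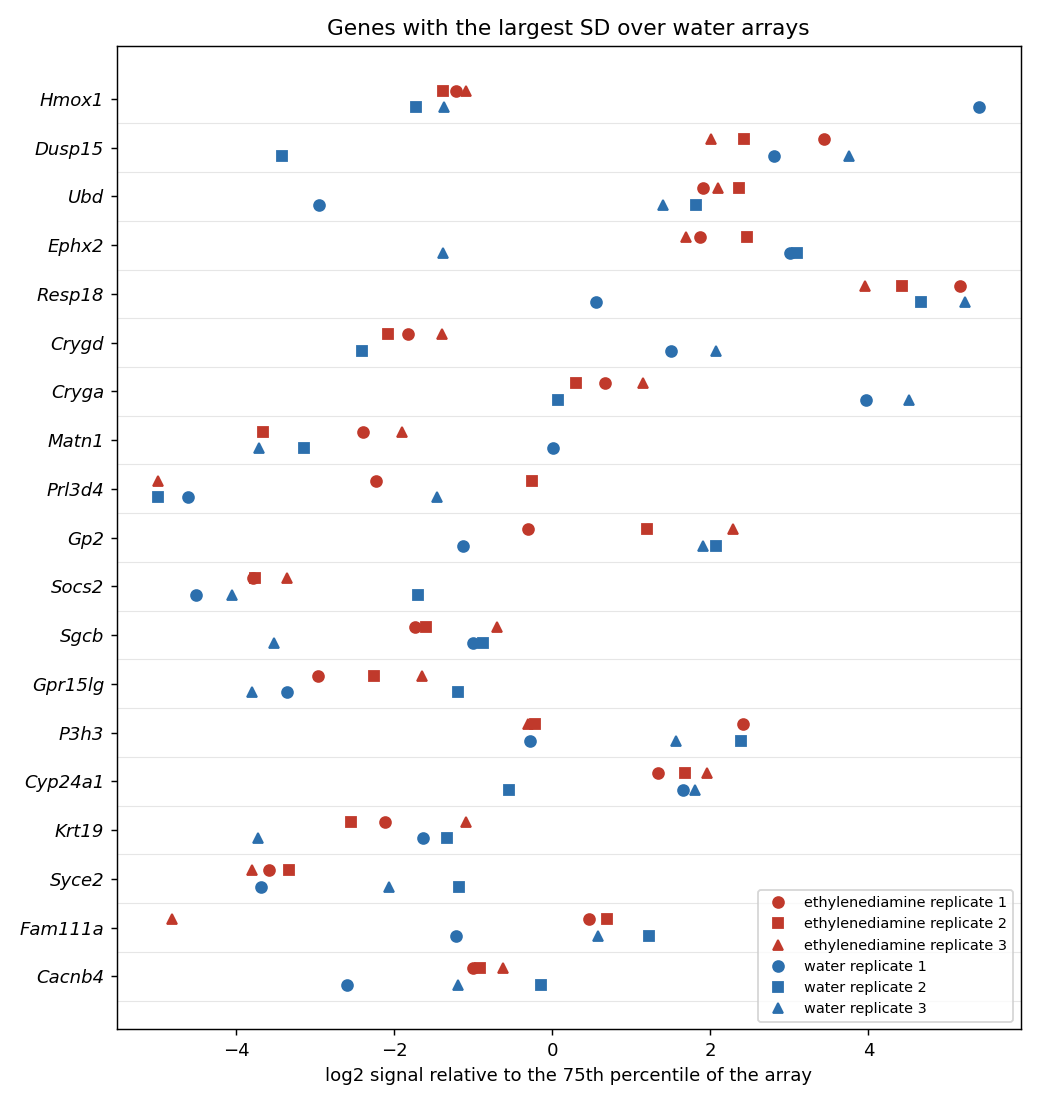
Log2 signal relative to the 75th percentile of the array (x axis) for 19 of the 20 genes with the largest SD over water arrays, 1 row per gene, with ethylenediamine rats in red above water rats in blue and a symbol shape for each replicate number. For Hmox1, Dusp15, Ubd, Ephx2 and Resp18 a single water rat stands apart while the other 5 animals lie together.

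No single water rat carried the list. Water rat 1 was the farthest of the 3 for 34 genes (19 high, 15 low), water rat 2 for 39 (14 high, 25 low) and water rat 3 for 27 (16 high, 11 low). Over all 10932 genes the shares were 35.0%, 35.8% and 29.3%. The role groups differed in which animal stood apart. Among the metabolic genes, water rat 2 was the odd one for 11 of 16, low for Cyp24a1, Sult1b1, Ugt2b7, Cyp2d2, Cyp2d5 and Cyp2d1 among others and high for Cryz, Tdh and Acox2 among others. Among the plasma and secreted proteins it was high for Kng1, Kng2, Hrg and Serpina3n, while water rat 1 was low for Resp18, Gp2, Rbp4 and Fetub. Among the immune genes, water rat 1 was high for Cxcl9, Mcpt9, Cd7, Cd300a and Gzmc, and water rat 3 for Cxcl13, Klra5, Tlr3 and Klra2. The rest went otherwise: water rat 1 was low for Ubd, and water rat 2 was low for Trem2 and Siglec1 and high for Gpr15lg. These counts have no test, since the same values chose the genes.

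The metabolic genes had water SDs from 0.80 to 2.56. Cyp24a1, the vitamin D 24-hydroxylase of the proximal tubule, read 1.34, 1.69 and 1.96 in ethylenediamine rats, against 1.66, -0.54 and 1.81 in water rats. Water rat 2 was low and the other 5 animals lay within the same narrow band. Sult1b1, a cytosolic sulfotransferase, read 4.47, 3.89 and 4.70 in ethylenediamine rats, against 3.36, 2.00 and 4.40 in water rats. The water rats were spread widely, and the highest of them lay inside the treated range.

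P2rx4, an ATP-gated channel, had animals of both groups at each of 2 levels, at -0.34, -2.06 and -2.10 in ethylenediamine rats and -0.44, -1.85 and -2.13 in water rats, with 1 high animal in each group, number 1 in both. The replicate numbers gave no sign of pairing the animals. Deviations correlated over genes between -0.05 and 0.01 for same-numbered arrays, and between -0.06 and 0.06 for the others.

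The immune genes had water SDs from 0.79 to 2.64, and their treated SDs had a median of 0.56. Cxcl9, a chemokine induced by interferon gamma, read -2.92, -3.34 and -3.59 in ethylenediamine rats, against -1.89, -4.01 and -4.03 in water rats, with water rat 1 high. Cxcl13, a chemokine that attracts B cells, read 0.23, -0.19 and -1.02 in ethylenediamine rats, against 0.02, -0.94 and 1.28 in water rats, with water rat 3 high. Trem2, a receptor of macrophages, read -1.57, -1.15 and -0.74 in ethylenediamine rats, against -0.79, -2.54 and -0.70 in water rats, with water rat 2 low. A different water rat thus stood apart for each of these 3 genes, and their treated values lay mostly within the water range. Tlr3, a sensor of double-stranded RNA, read 1.63, 0.84 and 0.98 in ethylenediamine rats, against 0.25, 0.28 and 1.70 in water rats. Whether these differences came with different numbers of immune cells was not tested.

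The crystallin, cytoskeletal, muscle and matrix group included genes better known from other tissues, such as Matn1, Sgcb and Tnnt1. Matn1, a matrix protein of cartilage, read -2.39, -3.65 and -1.90 in ethylenediamine rats, against 0.01, -3.14 and -3.70 in water rats, with water rat 1 high. Krt19, a keratin of simple epithelia, was the single gene of the tubular injury list in the set. It read -2.11, -2.55 and -1.08 in ethylenediamine rats, against -1.64, -1.33 and -3.72 in water rats, with water rat 3 low. Sgcb, a sarcoglycan of muscle, read -1.74, -1.59 and -0.70 in ethylenediamine rats, against -1.0, -0.87 and -3.52 in water rats, again with water rat 3 low, but its second probe varied far less. For all 3 genes the treated values lay inside or near the water range. Tnnt1, the slow skeletal troponin T, was the single gene of the skeletal muscle list in the set, at -3.11, -2.63 and -2.44 in ethylenediamine rats, against -1.29, -3.35 and -2.62 in water rats.

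Among growth factors, channels, transporters and receptors, Slc19a3, a thiamine transporter, read -3.73, -2.65 and -2.60 in ethylenediamine rats, against -0.51, -2.52 and -2.70 in water rats, with water rat 1 high. Cacnb4, a calcium channel subunit, read -1.0, -0.91 and -0.62 in ethylenediamine rats, against -2.60, -0.14 and -1.20 in water rats, and the treated rats sat inside a wide water range. Tgfb2, transforming growth factor beta 2, read -2.07, -3.45 and -3.20 in ethylenediamine rats, against -3.85, -2.12 and -4.36 in water rats. Each group of Tgfb2 had 1 animal near -2.1 and the others lower. Of the plasma proteins, Hrg read 2.74, 3.27 and 1.19 in ethylenediamine rats and 2.00, 3.73 and 2.04 in water rats, and F2, prothrombin, 0.55, 1.17 and 2.08 in ethylenediamine rats and -0.06, -0.09 and 1.31 in water rats. Hrg and F2 overlapped between the groups.

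Tspan1, a tetraspanin, and Apobec1, the editing enzyme of apolipoprotein B messenger RNA, were among the genes with other roles, whose water SDs ran from 0.82 to 1.19. Tspan1 read 2.69, 4.27 and 4.15 in ethylenediamine rats and 5.05, 2.81 and 4.55 in water rats. Apobec1 read 0.77, 0.67 and 1.99 in ethylenediamine rats and 0.97, -0.10 and 2.27 in water rats, and in both groups animal 3 was the highest. Ak7, an adenylate kinase of cilia, read -2.96, -2.96 and -2.88 in ethylenediamine rats and -1.48, -3.15 and -3.04 in water rats, so that a single water rat stood above 5 level animals.

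An arrangement at 2 levels, as in P2rx4, was counted over all genes. A gene was called 2-level if the largest gap between neighbouring values of the 6 arrays was at least 1 log2 and at least 60% of the whole range, a rule chosen after the values were seen. It held for 31 of the 100 genes and for 78 of all 10932 (0.714%), although a gene with a large SD is more likely to meet it. A single water rat stood apart in 21 of the 31. In 7 genes, among them P2rx4, Atp7a, Cd300a, Kcng1, P3h3 and Selenoi, both groups had animals at both levels. These are readings of the brightest probes. The second probes of P3h3, Kcng1 and Selenoi did not show the 2 levels, with water SDs of 0.13, 0.03 and 0.42. Atp7a had the same arrays high on its second probe, and P2rx4 and Cd300a had no other kept probe. The gamma crystallins Crygd and Cryga and the phospholipase gene Abhd3 made up the other 3, with 2 high water rats against the remaining 4 animals. No genotype was measured, and what parts the animals was not tested.

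Several of the genes lie near each other on the chromosome, which is given as a description without the share over all genes. In the RefSeq annotation of the rat assembly GRCr8, 17 of the 100 genes fell into 7 groups whose members lie within 10 protein-coding genes of the next. These were Kng1, Kng2, Hrg and Fetub on chromosome 11, Cyp2d5, Cyp2d1 and Cyp2d2 on chromosome 7, Crygd and Cryga on chromosome 9, Klra5 and Klra2 on chromosome 4, Sult1b1 and Ugt2b7 on chromosome 14, Asrgl1 and Incenp on chromosome 1, and Gsdma and Nr1d1 on chromosome 10. The first 4 groups hold copies of gene families, whose probes can bind each other's transcripts. Probe sequences were not used here, so how far each copy was read separately is uncertain. Promoter sequences of the closest copies are shown because the brightest probes of each pair moved together. They are taken from RefSeq on GRCr8, run 5′ to 3′ on the gene's strand from 250 bases before to 50 after the gene start, and have in capitals the longest stretch that the 2 copies share exactly.

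The cytochrome P450 copies Cyp2d1 (chr7:115793381-115793680, minus strand) and Cyp2d5 (chr7:115784438-115784737, minus strand) had 247 of 265 aligned promoter bases identical (93.2%), with a longest exact run of 66.
Cyp2d1: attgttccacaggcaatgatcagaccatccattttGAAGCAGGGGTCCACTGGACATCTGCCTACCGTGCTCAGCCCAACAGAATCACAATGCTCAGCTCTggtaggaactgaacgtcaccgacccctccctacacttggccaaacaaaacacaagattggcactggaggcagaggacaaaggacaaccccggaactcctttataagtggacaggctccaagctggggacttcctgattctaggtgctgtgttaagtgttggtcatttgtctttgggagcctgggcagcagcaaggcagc
Cyp2d5: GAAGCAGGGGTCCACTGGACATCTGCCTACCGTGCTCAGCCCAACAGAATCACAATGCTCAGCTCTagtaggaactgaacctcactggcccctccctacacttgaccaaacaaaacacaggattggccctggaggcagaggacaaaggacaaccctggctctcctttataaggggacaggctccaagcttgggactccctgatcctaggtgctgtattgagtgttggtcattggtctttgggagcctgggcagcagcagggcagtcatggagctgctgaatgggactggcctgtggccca
Enzymes of this family oxidise many drugs. Cyp2d1 read 3.61, 4.87 and 4.82 in ethylenediamine rats, against 3.84, 2.35 and 4.06 in water rats, and Cyp2d5 read 3.81, 5.04 and 4.96 in ethylenediamine rats, against 4.0, 2.49 and 4.27 in water rats. Animal by animal the copies had the same order. Cyp2d2 shared the low water rat 2, at 2.83, 2.65 and 2.54 in ethylenediamine rats, against 2.91, 1.1 and 2.98 in water rats, but its treated rats were level.

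The kininogen genes Kng1 (chr11:91340099-91340398, minus strand) and Kng2 (chr11:91418220-91418519, plus strand) encode plasma precursors of the kinin peptides. A run of 87 bases was shared exactly and sits at a different distance from the annotated start in each, opening the window of Kng1. The alignment of the windows, with 179 of 248 aligned bases identical (72.2%), does not pair that run. This share is therefore no measure of how alike the copies are.
Kng1: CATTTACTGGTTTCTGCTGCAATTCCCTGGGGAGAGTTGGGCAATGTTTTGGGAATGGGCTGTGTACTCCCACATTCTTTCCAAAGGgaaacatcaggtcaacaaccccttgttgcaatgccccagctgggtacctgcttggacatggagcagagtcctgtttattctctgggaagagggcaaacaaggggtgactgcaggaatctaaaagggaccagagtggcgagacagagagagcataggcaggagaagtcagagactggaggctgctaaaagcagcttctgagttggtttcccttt
Kng2: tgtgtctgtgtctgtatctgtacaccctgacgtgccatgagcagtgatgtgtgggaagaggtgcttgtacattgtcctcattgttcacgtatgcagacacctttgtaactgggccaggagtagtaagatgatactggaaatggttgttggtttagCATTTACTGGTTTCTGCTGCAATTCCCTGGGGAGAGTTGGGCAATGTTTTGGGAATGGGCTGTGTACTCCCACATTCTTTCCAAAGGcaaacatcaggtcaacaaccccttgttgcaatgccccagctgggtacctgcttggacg
Kng1 read -0.60, -0.02 and -0.44 in ethylenediamine rats, against -3.37, -1.31 and -3.17 in water rats. Kng2 read -0.16, 0.39 and -0.08 in ethylenediamine rats, against -3.33, -0.98 and -2.58 in water rats. For both, water rat 2 was the highest of its group and still below every treated rat.

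The gamma crystallin genes Cryga (chr9:73978333-73978632, minus strand) and Crygd (chr9:73937360-73937659, minus strand) encode structural proteins of the eye lens. Of their aligned promoter bases 202 of 264 were identical (76.5%), and the longest exact run was 13.
Cryga: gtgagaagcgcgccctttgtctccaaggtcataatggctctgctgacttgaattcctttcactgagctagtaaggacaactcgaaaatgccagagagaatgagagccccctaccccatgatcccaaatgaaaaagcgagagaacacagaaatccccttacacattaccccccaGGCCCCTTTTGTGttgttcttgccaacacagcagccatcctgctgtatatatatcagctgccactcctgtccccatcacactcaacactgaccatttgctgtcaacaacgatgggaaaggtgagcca
Crygd: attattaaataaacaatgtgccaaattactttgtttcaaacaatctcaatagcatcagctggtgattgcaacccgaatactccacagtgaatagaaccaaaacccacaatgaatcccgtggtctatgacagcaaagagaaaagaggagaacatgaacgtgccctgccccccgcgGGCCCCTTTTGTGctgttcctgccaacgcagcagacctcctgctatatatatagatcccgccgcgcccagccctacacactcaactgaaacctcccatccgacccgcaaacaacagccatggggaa
Cryga read 0.67, 0.30 and 1.15 in ethylenediamine rats, against 3.97, 0.07 and 4.52 in water rats, and Crygd -1.82, -2.08 and -1.39 in ethylenediamine rats, against 1.5, -2.41 and 2.07 in water rats. Water rats 1 and 3 were high on both probes, and water rat 2 lay just below the treated rats. A second Crygd probe did not share the pattern, at -2.05, -2.16 and -2.20 in ethylenediamine rats, against -2.12, -2.25 and -2.36 in water rats.

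In the promoter table, 76 of the 100 genes had an entry. Searched on both strands, the E-box CACGTG was in 6 of them (7.89%, against 6.42% of all 33469 promoters), the heat shock element core GAANNTTC in 8 (10.5%, against 8.59%) and the cAMP response element TGACGTCA in 0 (against 1.83%). These are matches of letters in a short window and nothing is drawn from them about the factors.

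A second probe gave a separate reading of the same RNA for 33 of the 100 genes. In 26 of them the next brightest probe had the same water rat apart on the same side, and in 23 its SD was at least 50% of that of the brightest. Both held for 22, among them Cyp24a1, Kng1 and Sult1b1. In Cyp24a1 the second probe read -0.64, -0.33 and -0.06 in ethylenediamine rats, against -0.40, -2.78 and -0.34 in water rats, again with water rat 2 alone low. In 8 genes the SD of the second probe was under 25% of that of the first: Crygd, Rnf187, P3h3, Kcng1, Phf19, Lrrc27, Tlcd4 and Sgcb. Rnf187, a ubiquitin ligase, read 1.79, 1.81 and 1.80 in ethylenediamine rats and 0.18, 1.83 and 1.72 in water rats on the brightest probe, and the second probe had an SD of 0.02 over water rats. For these 8 genes the spread depends on which probe is read, and the cause was not tested. The remaining 67 genes, Hmox1 among them, had 1 kept probe.

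**Figure D2:**
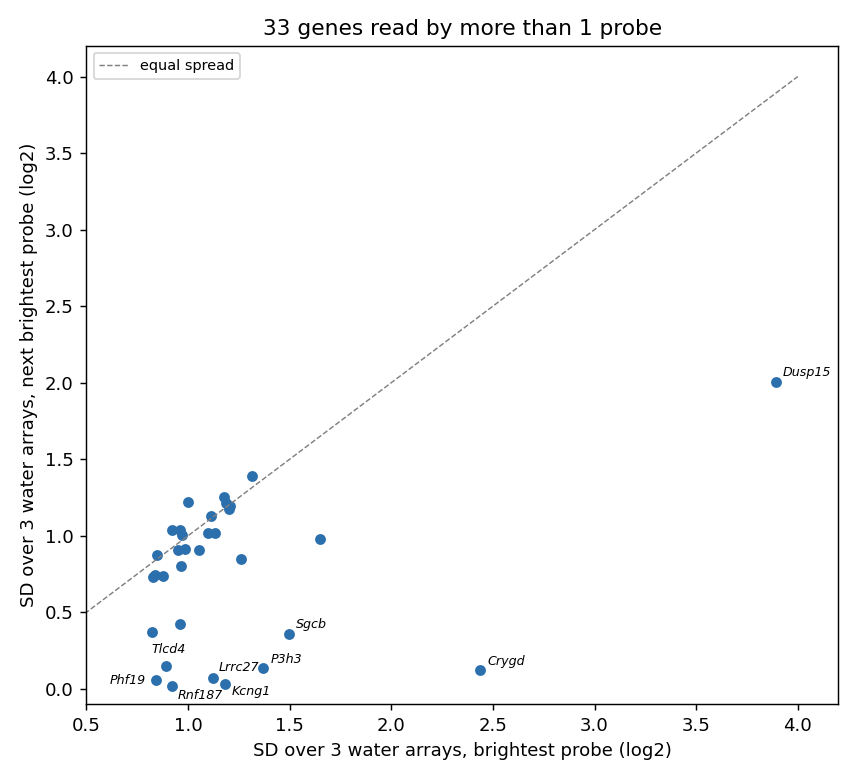
SD over the 3 water arrays of the brightest probe (x axis, log2) and of the next brightest probe (y axis, log2) for the 33 genes with more than 1 kept probe, 1 point per gene. Most points lie near the dashed line of equal spread, and 8 genes, Crygd the farthest among them, lie below 25% of it.

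The SD over the 3 treated rats was not used in the choice of the genes. Its median was 0.52 for the 100 genes, against 0.11 over all genes. Of the 100, 71 were above the 90th percentile of treated SD (0.31), 22 were among the 100 largest treated SDs, and 5 were below the median of all genes. The treated SD exceeded the water SD in 19 of the 100 genes, against 58.2% of all genes, a count that the choice by water SD lowers by construction. With ethylenediamine replicate 1 left out, so that both treated arrays lay on slide 2, the median was 0.32 and 23 genes were among the 100 largest. The genes are not replicates of one another, so these counts carry no p-value.

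The 5 genes of the set with the largest treated SD included Fam111a, Prl3d4, Serpina3n and P3h3. Fam111a, a protease of replicating chromatin, read 0.47, 0.70 and -4.80 in ethylenediamine rats and -1.21, 1.23 and 0.58 in water rats, so that 1 treated rat was far below all others. Prl3d4, a placental member of the prolactin family, read -2.23, -0.25 and -4.99 in ethylenediamine rats and -4.60, -4.99 and -1.46 in water rats, with ethylenediamine rat 2 above every water rat and the other treated values within or at the edge of the water range. P3h3, a collagen prolyl hydroxylase, read 2.41, -0.22 and -0.30 in ethylenediamine rats and -0.28, 2.39 and 1.57 in water rats. Its second probe had a treated SD of only 0.12. By role, plasma and secreted proteins had 6 of 11 genes among the 100 largest treated SDs. Growth factors, channels, transporters and receptors had 5 of 11, and germ cell, division and chromatin genes 4 of 7. These counts include Kcng1 and Phf19, whose second probes had treated SDs of 0.24 and 0.12. The stress, clock and signal feedback genes had 1 of 10, and their median treated SD was 0.33.

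**Figure D3:**
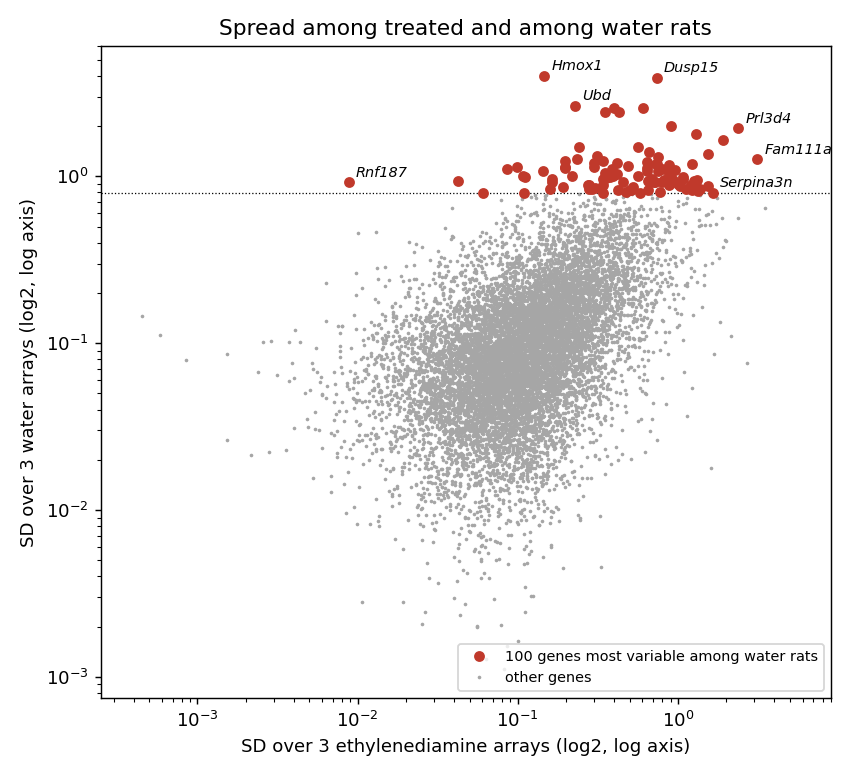
SD over the 3 ethylenediamine arrays (x axis) against SD over the 3 water arrays (y axis), both on log axes, for the 100 genes (red) and all other genes (grey), with the dotted line at the smallest water SD of the 100 (0.79). The red points lie toward the right of the grey ones, from Rnf187 at 0.0088 to Fam111a at 3.11 on the x axis.

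In the stress, clock and feedback group, 5 of 10 genes were above the 90th percentile of treated SD. Socs2 and Cish are feedback inhibitors of growth hormone and cytokine signalling. Socs2 read -3.78, -3.76 and -3.35 in ethylenediamine rats, against -4.51, -1.70 and -4.05 in water rats, with water rat 2 high, while Cish was highest in water rat 1 and varied in both groups (SD 0.90 in ethylenediamine rats and 1.05 in water rats). Gadd45g, a growth arrest gene induced by stress, read 1.51, 2.16 and 2.07 in ethylenediamine rats, against 3.93, 2.35 and 2.16 in water rats, with water rat 1 high. Arc, an immediate early gene, read -1.97, -0.85 and -0.88 in ethylenediamine rats, against -0.36, -2.09 and -0.13 in water rats, with water rat 2 low. The clock repressor Nr1d1 read -3.61, -2.90 and -1.72 in ethylenediamine rats and -3.67, -1.91 and -1.68 in water rats, and in each group the first rat was the lowest. Depp1, a fasting-responsive gene, and Apold1, an endothelial early response gene, were both lowest in water rat 3.

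Of 41 lists of genes with a shared function or cell type, 29 held none of the 100 genes and 9 held 1. The 3 with more were the cytochrome P450 list (Cyp24a1, Cyp2d2, Cyp2d5 and Cyp2d1 of 33 measured), the immediate early genes (Arc and Gadd45g of 35) and the conjugation enzymes and NRF2 targets (Sult1b1 and Ugt2b7 of 43). In all, 17 of the 100 genes were on a list and 83 on none. The share of all genes that are on a list is not given beside these counts, and nothing is read from them. The 4 lists of at least 5 measured genes with the largest median water SD held no gene of the set. The lists do not name every gene of a type. The chemokines Cxcl9 and Cxcl13 are in the set but not on the cytokine and chemokine list, and Klra2, a natural killer cell receptor, is not on the lymphocyte list. Glucocorticoid-responsive genes had a median SD of 0.37 in ethylenediamine rats and 0.43 in water rats over 12 genes, 9 of them above the 90th percentile of water SD, yet none was among the 100. Cytokines and chemokines had 0.48 in ethylenediamine rats and 0.39 in water rats (11 genes), and adipose tissue genes 0.42 in ethylenediamine rats and 0.31 in water rats (6 genes).

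Lymphocyte markers had a median SD of 0.12 in ethylenediamine rats and 0.29 in water rats over 12 genes, with a median log2 signal of -2.61. Circadian clock genes had 0.22 in both groups (14 genes). At the other end, ribosomal protein genes had a median SD of 0.05 in ethylenediamine rats and 0.04 in water rats (87 genes), and proximal tubule markers 0.10 in ethylenediamine rats and 0.07 in water rats (19 genes). Medians over all genes were 0.11 in ethylenediamine rats and 0.09 in water rats. Most lists lay above these: of the 41, 37 had a higher median in ethylenediamine rats and 37 in water rats. The order of the lists is a description, and no list was tested.

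**Figure D4:**
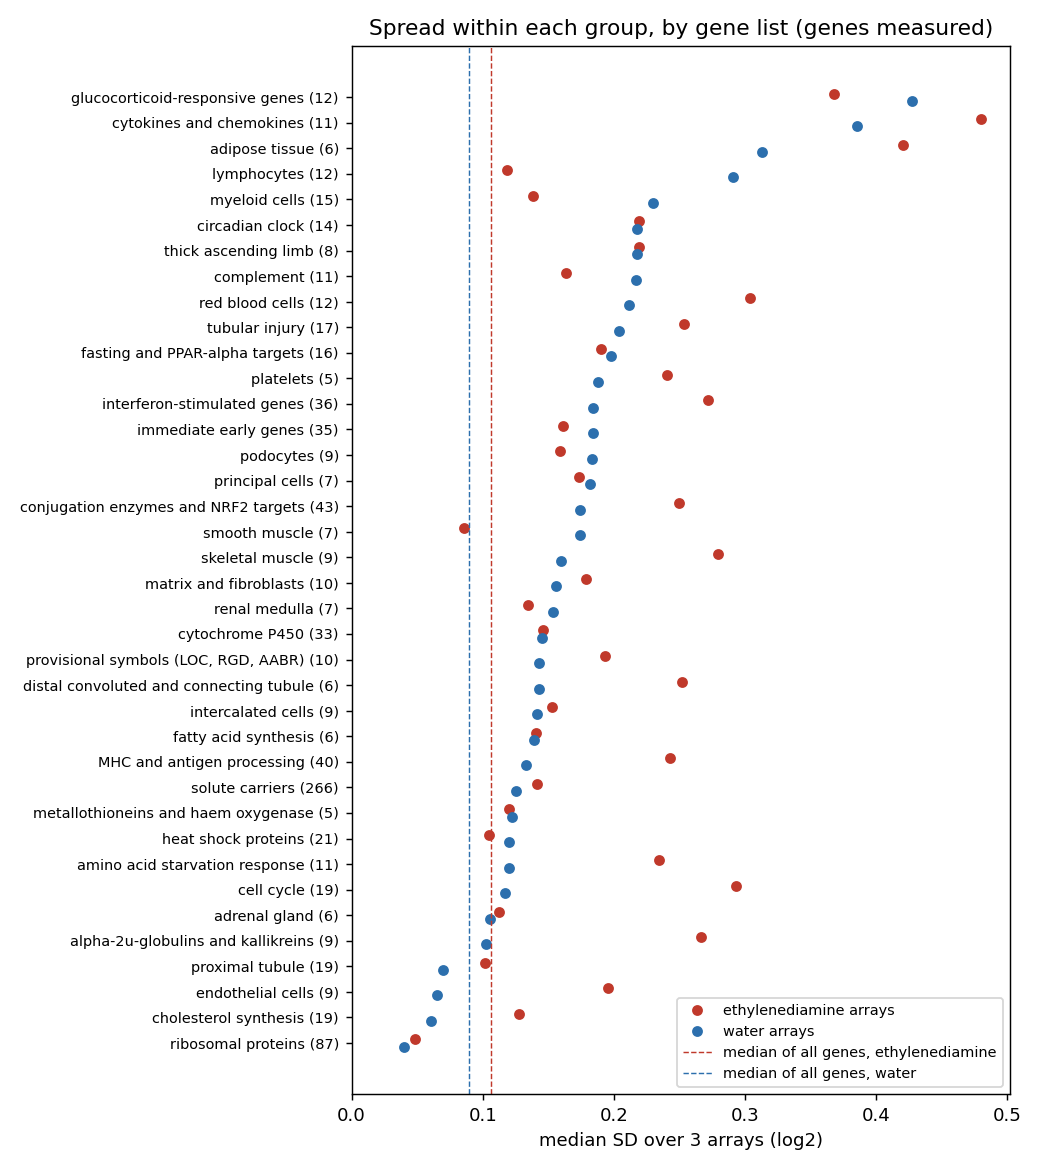
Median SD over 3 arrays (x axis, log2) for each list with at least 5 measured genes (rows, with the number measured), red for ethylenediamine arrays and blue for water arrays, with dashed lines at the medians of all genes. Glucocorticoid-responsive genes and cytokines and chemokines lie at the top, ribosomal proteins at the bottom.

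Errfi1, Sgk1 and Per1 illustrate the glucocorticoid-responsive list and were picked after their values were seen. Errfi1, a feedback inhibitor of growth factor receptors, read 5.86, 5.95 and 5.15 in ethylenediamine rats and 6.26, 6.15 and 5.20 in water rats. Sgk1, a kinase that raises sodium reabsorption, read 2.67, 2.73 and 3.30 in ethylenediamine rats and 3.47, 3.33 and 2.49 in water rats, and the clock gene Per1 -2.11, -2.01 and -1.83 in ethylenediamine rats and -1.26, -1.68 and -2.59 in water rats. In all 3, water rat 3 was the lowest of its group. It was the lowest in 8 of the 12 genes of the list, and not in Zbtb16, Pdk4, Angptl4 or Sult1a1. The share of all genes in which water rat 3 was lowest is not given, and nothing is read from this count.

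Many of the 100 genes were read by dim probes: 52 lay below the lower quartile of mean signal (-1.48) and 10 above the upper quartile (2.59), with a median of -1.53, against 0.60 over all genes. Below that lower quartile, the genes of the set had a median treated SD of 0.48, against 0.18 for all genes there, and above the upper quartile 0.67, against 0.07. The error that Feature Extraction attaches to each signal had a median of 0.15 log2 on the water arrays and was at most 0.23 for the 100 genes.

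For the treated arrays, the following values describe how the genes read against the water rats. Since the genes were chosen for their spread over water rats, a larger share inside the water range, a wider interval and more turns of sign without a water array follow by construction. Of the 300 treated values of the 100 genes, 202 (67.3%) lay inside the range of the 3 water values, against 40.9% over all genes. The share was 66%, 75% and 61% on ethylenediamine arrays 1 to 3, against 44.9%, 40.0% and 37.8%. All 3 treated values were inside for 40 genes, against 13.0% of all genes. The 95% interval of the log2 fold change had a median half-width of 1.45, or 2.73-fold, against 0.21, or 1.16-fold, over all genes. Leaving out 1 ethylenediamine array or another turned the sign of the fold change for 35 of the 100 genes, against 31.6% of all genes, and leaving out 1 water array or another for 54, against 27.8%.

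With limma's adjusted p, 0 of the 100 genes passed 0.05 in either direction, and the background was likewise 0.0% of the 10932 genes tested. At an unadjusted p under 0.05, 4 were higher (background 5.49%) and 0 lower (background 4.98%). All 3 treated values lay above all water values in 5 genes, Cpxm2, Kng1, Kng2, Ubd and Ugt2b7 (background 9.31%), and below them in 2, Gadd45g and Klra2 (background 8.26%). A difference of 2-fold or more was found in 12 higher genes (background 0.476%) and 6 lower genes (background 0.11%). Since the water spread that chose the genes also enters these contrasts, the counts are given beside the background and nothing is read from them. Whichever array was left out, 6 of the 18 genes with a 2-fold difference kept one, against 19 of 64 over all genes. They were Crygd, Cryga, Kng2, Ugt2b7, Kng1 and Serpina3n, each read on its brightest probe. The second Crygd probe did not share the difference.

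Ugt2b7, a glucuronosyltransferase of steroids and drugs, read 1.97, 2.14 and 1.98 in ethylenediamine rats, against -0.18, -2.08 and -0.04 in water rats. The treated rats were level and all above the water rats, of which water rat 2 was low. The log2 fold change was 2.80 ± 0.54 (SE, n = 3 per group, 6.95-fold), with a limma adjusted p of 0.324. Without water rat 2 it was 2.14 with a limma adjusted p of 0.0256, and with any other array left out the adjusted p ran from 0.231 to 0.572. Leaving out water rat 2 removes the spread that put the gene in the set, so the smaller p is no support for a difference. Within slide 1, where the treated side is ethylenediamine replicate 1 alone, the log2 fold change was 2.73.

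The kininogens were 4.79-fold (Kng1, log2 fold change 2.26 ± 0.55 SE, limma adjusted p = 0.332) and 5.09-fold higher (Kng2, 2.35 ± 0.59 SE, limma adjusted p = 0.337) without passing the threshold, and their values within slide 1 were 2.01 and 2.13. Cpxm2, a carboxypeptidase-like secreted protein, read -1.85, -2.01 and -1.33 in ethylenediamine rats, against -2.71, -4.23 and -2.40 in water rats. Its log2 fold change was 1.38 ± 0.50 (SE, limma adjusted p = 0.442), and 0.82 without water rat 2. Serpina3n, a secreted protease inhibitor of the acute phase, read -1.93, -3.54 and -0.23 in ethylenediamine rats, against -4.33, -3.05 and -4.51 in water rats, with overlap between ethylenediamine rat 2 and water rat 2. Its log2 fold change was 2.06 ± 0.87 (SE, limma adjusted p = 0.485), and 1.23 without ethylenediamine rat 3.

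On the lower side, Klra2, a natural killer cell receptor, read -3.50, -3.48 and -4.07 in ethylenediamine rats, against -2.95, -3.45 and -1.90 in water rats, a log2 fold change of -0.91 ± 0.41 (SE, limma adjusted p = 0.509) with groups that barely parted. Without water rat 3 it was -0.48. Abhd3 read -1.60, -1.54 and -1.39 in ethylenediamine rats, against -0.34, -0.09 and -1.58 in water rats, and water rat 3 lay among the treated ones. Syce2, a component of the meiotic synaptonemal complex, read -3.59, -3.33 and -3.79 in ethylenediamine rats, against -3.69, -1.17 and -2.07 in water rats, with water rat 1 among the treated ones. Their log2 fold changes were -0.84 ± 0.38 and -1.26 ± 0.61 (SE, limma adjusted p = 0.516 and 0.537). Without 1 array or another they ran from -1.29 (without water rat 3) to -0.55 (without water rat 2) for Abhd3, and from -1.95 (without water rat 1) to -0.69 (without water rat 2) for Syce2. Crygd and Cryga had log2 fold changes of -2.15 and -2.14, with a 95% interval from -5.00 to 0.70 for Crygd. Without water rat 2 they were -3.55 and -3.54, and without water rat 3 both were -1.31. These are values of the brightest probes. The second Crygd probe read -2.05, -2.16 and -2.20 in ethylenediamine rats, against -2.12, -2.25 and -2.36 in water rats. In Hmox1 the log2 fold change was -2.0 over all arrays and 0.31 without water rat 1, so its direction rested on that animal. In Dusp15 it was 1.58 over all arrays and -0.65 without water rat 2, and in Ephx2 0.43 over all arrays and -1.05 without water rat 3.

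**Figure D5:**
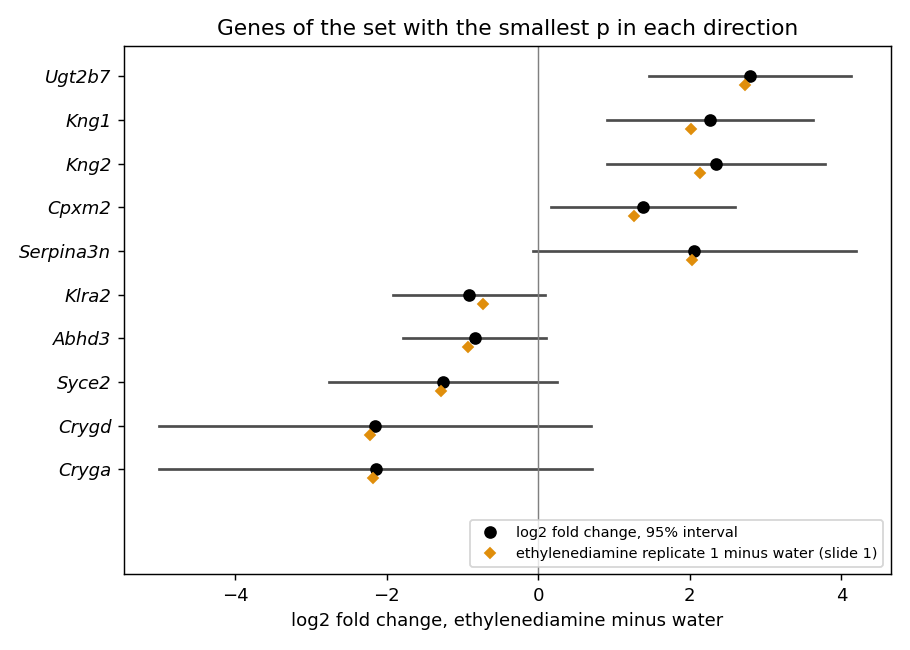
Log2 fold change of ethylenediamine over water rats (x axis) for the 5 genes of the set with the smallest p in each direction, black points with 95% intervals from limma and orange diamonds for ethylenediamine replicate 1 against the water arrays of slide 1. Intervals of Ugt2b7, Kng1, Kng2 and Cpxm2 lie above 0, and those of the other 6 genes include it.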

How the data were processed

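Renal cortex RNA of 3 ethylenediamine-treated and 3 water rats was read on 1-colour arrays (Cy3, 0.2 ug RNA); the labels give groups and replicate numbers and call the animals biological replicates. The scanner files deposited by the authors give each spot's linear intensity after background subtraction, unscaled between arrays and on an rn4 grid. The software was Agilent Feature Extraction, version 10.7.1.1 in the file headers and 10.7 per the submitters' processing notes. The deposited table divides the same intensity by the array's 75th percentile, is linear and uncentred, lies within 2% of that scaling for all 61537 probes, and has column medians of 0.1062, 0.1104 and 0.1071 for ethylenediamine and 0.1076, 0.1052 and 0.1046 for water replicates 1 to 3; it served as an alternative.

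Control spots (1439) and 22 outlier-flagged probes were left out, and no spot was saturated. Processed intensity was taken as log2 minus the array's 75th percentile. Symbols came from probe accessions through RefSeq on GRCr8 (28206 of 61537 probes), which left 18719 probes well above background on all 6 arrays and 10932 genes. From 35711 to 40856 probes per array were well above background. The number of arrays limits the precision.

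The ethylenediamine and water arrays were fitted in limma 3.58.1 under R 4.3.3 (lmFit and eBayes, 4 residual and 1.98 prior degrees of freedom, Benjamini-Hochberg over all 10932 genes), tested on simulated data. The alternatives were median and quantile scaling, normexp with an offset of 50 on the median signal (the files hold no mean signal), the deposited table, other filters, the mean of a gene's probes, an intensity trend, a robust prior, slide and replicate blocks, and each array left out. With the slide as a block, the estimate is that of ethylenediamine replicate 1. Deviations from the group mean of same-numbered arrays correlated at -0.05, -0.00 and 0.01, so the numbers do not pair the animals. The genes and lists were chosen with earlier results of these data known. Named by rule were the 20 largest water SDs, up to 4 members of each list with at least 2, the 5 smallest p in each direction, the 5 largest treated SDs, and 3 genes on each side of the limit (38 genes); other genes are named as members of their group, after their values were seen. An rn4 genome was not used here. Some genes that the rule gave are not reported here.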

Additional observations from a re-analysis of the deposited data

How the results depend on the processing

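Of the 100 genes, 75 to 100 were also chosen under median or quantile scaling, normexp, the deposited table and the mean of a gene's probes, and 73 with the filter on 1 group. Without a filter on dim probes only 9 were, and ranking by SD relative to genes of like level, an alternative chosen after seeing the data, kept 60. Without 1 water array, 59 to 67 were kept. The median treated SD ran from 0.32 to 0.53 over its alternatives. By limma, the adjusted count of higher genes ran from 0 to 1 when an array was left out (1, Ugt2b7, without water replicate 2), and the unadjusted counts from 3 to 8 higher and from 0 to 7 lower. Non-overlapping groups numbered 8 to 13 higher and 3 to 10 lower with 1 array left out, and 1 lower under quantile scaling or normexp; with fewer arrays, groups part more easily. With the replicate number as a block, although the numbers gave no sign of pairing, 7 genes were higher and 1 lower at an unadjusted limma p under 0.05. By adjusted p there were 0. For the adjusted, unadjusted and non-overlap counts under these alternatives, the shares over all genes are not given, and nothing is read from these counts. The median half-width was 2.30 within slide 1, which has 1 treated array. Of 170 recomputed fold changes of the 5 genes with the smallest p in each direction, chosen for that difference, 0 reversed. Many of them could not. The replicate block, intensity trend and robust prior leave a fold change as it is, and the slide block repeats that within slide 1. The other filters also gave these genes their main value, so nothing is read from the 170. Among the 100 genes, 54 changed sign without 1 water array or another. The 3 arrays per group and the single slide of the water arrays limit every SD here.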
